A study of Mus musculus with 5 samples.

Results

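The cytosolic ribosome is the particle that translates messenger RNA into protein, and its protein part is encoded by a family of genes scattered over the genome. The genes considered here were all those in the count files whose symbol followed the naming of that family (Rps with a number, Rpl with a number, Rplp0 to Rplp2, Rpsa and Fau), and 84 of 55411 genes did so. Of these, 33 belong to the small subunit, 48 to the large subunit and 3 to the P stalk, the flexible arm of the large subunit that recruits elongation factors. GENCODE lists 81 of them as protein-coding and 3 (Rpl6l, Rpl32l and Rps4l) as pseudogenes. The naming rule left out related symbols such as Rps3a1, Rpl36al, Rpl22l1, Rpl7l1 and Rack1 (a small-subunit scaffold protein).

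The cells were olfactory sensory neurons of the mouse main olfactory epithelium that express the odorant receptor gene Olfr151, sorted live by the GFP that the modified Olfr151 allele carries. All mice, control mice included, were homozygous for this allele (Olfr151tm26Mom) and 7 weeks old, and each library was made from the pooled cells of 4 mice. Exposed mice were given 5% acetophenone, an odorant, in DMSO for 5 h, and control mice DMSO alone for the same time. Control libraries came from pools numbered 1 to 3 and exposed libraries from pools 1 and 3, while exposed pool 2 was not analysed here. Where values are listed, the control pools come first, in the order 1, 2, 3, and exposed pools 1 and 3 follow. The comparison asks which transcripts differ in these neurons after hours of odorant exposure.

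Ribosomal protein messages are among the best known members of the TOP class (5′ terminal oligopyrimidine), which begin with a C followed by a run of pyrimidines (C or T) at the start of transcription. This run couples their translation to the TOR kinase, through the binding protein Larp1, so that cells can adjust the output of the whole family together. Ribosome assembly begins in the nucleolus, where RNA polymerase I transcribes the ribosomal RNA. The family has also left very many processed pseudogenes in mammalian genomes, which resemble the parent messages closely.

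The 5 libraries held 42636543 to 49390446 counts on genes, of which control pool 2 had the most. Mature neuron markers were abundant in all of them: the summed level of 7 markers (Omp, Adcy3, Cnga2, Gng13, Gnal, Stoml3 and Rtp1) was 54530, 57670 and 55060 CPM (counts scaled to library size) in the control pools and 46820 and 47690 CPM in the exposed pools, which lay under all control pools. The summed level of 6 immature neuron markers was 858, 747 and 834 CPM and then 1176 and 899 CPM, above all control pools. Of these, Gap43, Gng8, Stmn1 and Dpysl3 lay above all control pools in both exposed pools and Stmn2 in exposed pool 1 only. Crmp1 lay under them, at 147, 161 and 163 CPM and then 111 and 106 CPM. Of the mature markers, Omp, Cnga2 and Rtp1 lay under all control pools in both exposed pools. Adcy3 and Gnal did so in exposed pool 1 only. Gng13 stayed within the control range, and Stoml3 was above it in exposed pool 1. The authors reported that most main genes of the transduction cascade, Adcy3 and Cnga2 being on their list, were lower after odorant exposure. The part of these marker differences in the results on the family was not tested. Markers of other cells were lower but uneven. The summed level of 5 immune markers was 66.8, 7.39 and 4.13 CPM among control pools and 126 and 46.9 CPM among exposed pools. Summed in the same order, 5 sustentacular cell markers stood at 259, 182, 99.4, 342 and 133 CPM, and 4 haemoglobin genes at 343, 107, 12.4, 15.4 and 6.39 CPM.

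Start sites were read from RefSeq (GRCm38.p6), in which 62 of the 84 genes had at least 1 start listed, 74 starts in all. A TOP start was taken as a C at the first base that opens a run of at least 5 pyrimidines, read on the gene's strand only. By this definition 15 of the 62 genes (24.2%) had a TOP start, against 2.96% of the 26963 other genes with a listed start and 3.01% of all genes. In the following lines, 10 bases before and 20 bases from the start are shown for 6 genes that have such a run and for 2 abundant members whose listed start lacks it, with the run in capitals.
Rps6, chr4:86857348-86857377, minus strand: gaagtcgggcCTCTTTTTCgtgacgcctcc
Fau, chr19:6057937-6057966, plus strand: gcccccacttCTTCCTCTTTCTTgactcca
Rps15a, chr7:118116128-118116157, minus strand: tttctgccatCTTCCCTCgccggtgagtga
Rpl35, chr2:39005112-39005141, minus strand: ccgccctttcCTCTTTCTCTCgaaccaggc
Rpl38, chr11:114668570-114668599, plus strand: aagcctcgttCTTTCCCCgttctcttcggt
Rplp2, chr7:141447641-141447670, plus strand: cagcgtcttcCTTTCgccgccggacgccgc
Rpl4, chr9:64173377-64173406, plus strand: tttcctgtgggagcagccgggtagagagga
Rplp0, chr5:115559457-115559486, plus strand: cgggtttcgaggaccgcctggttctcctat
A start without the run says only that these letters are not at the listed position, since listed starts can lie some bases from the one used.

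The reads were 50 bases long, and a read that matched several places was not counted, so the number of counts a member could receive depended on how much of its message is found nowhere else. For each gene, all 50-base windows of its protein-coding transcripts were searched in the transcripts of all other genes. The median share of windows found in no other gene was 64.4% over the 84 members, against 99.8% over all tested genes with transcripts. It lay under 50% in 27 members (32.1%), against 2.39% of tested genes. The lowest value was 4.91% in Rpl35 and the highest was 100%, reached by Rpl3l and Rpl39l among others. Windows of 81 members occurred in at least 1 other gene, and the largest number of such genes was 123 for Rpl7a, of which 120 were pseudogenes.

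The first 50 coding bases of 3 members, with the start codon in capitals, show what this means for a read. They were taken from GENCODE transcripts (M21) of genes at chr2:39001580-39005624 for Rpl35, chr11:78180932-78183584 for Rpl23a and chr15:76904078-76906314 for Rpl8.
Rpl35: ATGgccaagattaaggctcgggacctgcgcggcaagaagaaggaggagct
Rpl23a: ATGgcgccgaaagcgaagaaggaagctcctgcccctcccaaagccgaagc
Rpl8: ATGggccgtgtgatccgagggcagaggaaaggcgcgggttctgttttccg
The Rpl35 window was found in the transcripts of 3 other genes and the Rpl23a window in those of 7, whereas the Rpl8 window was found in none. Rpl8, which lies beside the peptidyl transferase centre, had 7475, 4766 and 6107 counts in the control pools and 6887 and 5658 in the exposed pools, with 937 of its 1000 windows found in no other gene. Rpl23a, a large-subunit protein, had 11, 10 and 0 counts in the control pools and 19 and 10 in the exposed pools, with 73 of its 511 windows found in no other gene. Across the 84 genes, Spearman's rho between the share of windows found in no other gene and the mean count was 0.45, a description over genes that share the same 5 libraries.

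**Figure D1:**
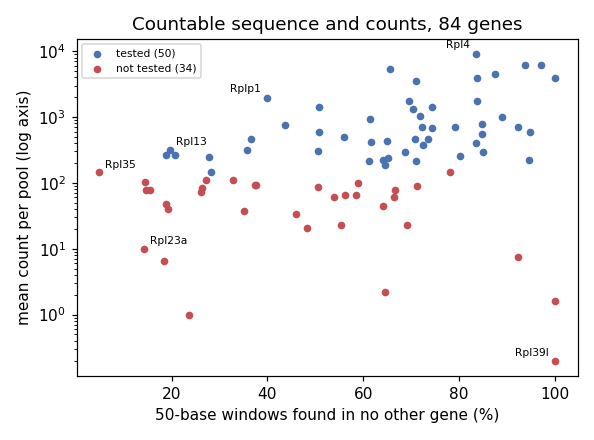
Share of each gene's 50-base windows found in no other gene (x axis, %) against its mean count over the 5 pools (y axis, log scale), for the 50 tested and 34 untested members. Rpl4, at 83.5%, has the highest mean count and Rpl23a, at 14.3%, has a mean of 10.0 counts, while Rpl39l has almost none although all its windows are its own.

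Counts were very unequal within the family. The 8 members with the highest counts held 60.2% of all counts of the 84 genes, and 28 members had fewer than 100 counts per library on average. On the scale of TPM (counts divided by exon length and scaled to an equal sum per library), 12 members had a mean above 100 in the control pools, 27 lay between 10 and 100, 36 between 1 and 10, and 9 at or under 1. Rpl8 had the highest mean level at 334 ± 74.9 TPM (SD, n = 3 control pools), with 332.8 TPM in the exposed pools. Rpl4, which lines the tunnel for the growing peptide, followed at 329 ± 26.9 TPM and 330.4 TPM. Next came Rplp1 at 266 ± 92.0 TPM, Rplp0 at 227 ± 41.7 TPM and Rpl41, the shortest ribosomal protein, at 200.3 ± 70.5 TPM. In this order of control means, 82 of the 83 pairs of neighbours had overlapping ranges over the control pools. The exception was the step from Rps3 to Rpl38, which left the 13 highest members apart from the others.

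**Figure D2:**
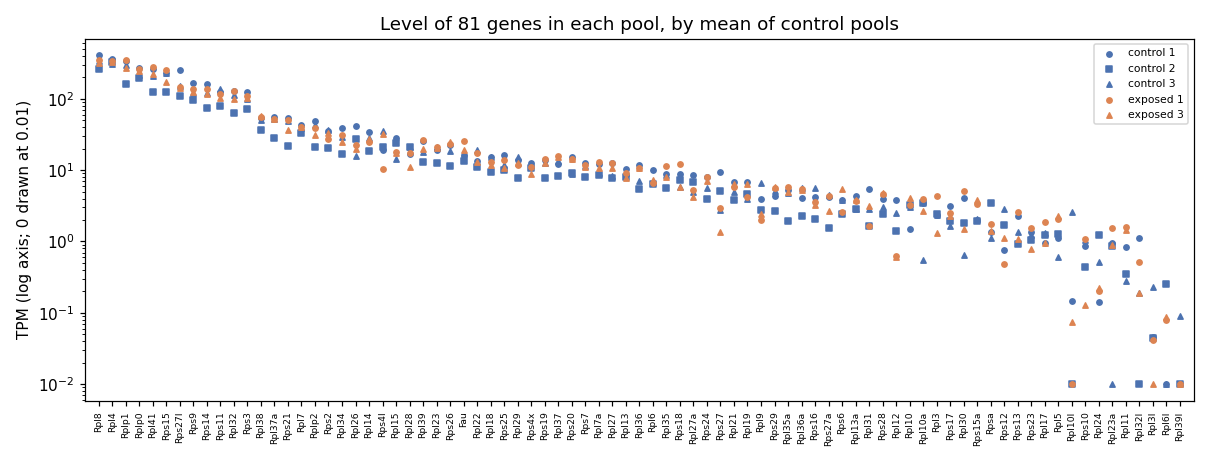
Level of 81 of the 84 genes (x axis, ordered by the control mean) in TPM (y axis, log scale, with 0 drawn at 0.01), 1 point per pool. The levels fall in a gradual order with 1 step between Rps3 and Rpl38, and control pool 2 lies at the bottom of most of the upper columns.

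Among the lowest levels of the 50 members with enough counts for a test were those of Rps15a (2.01 ± 0.0573 TPM), Rpl35a (3.99 ± 1.79 TPM), Rpl21 (5.16 ± 1.52 TPM) and Rps24 (5.82 ± 2.01 TPM), all in control pools. Their exon lengths of 6270, 3526, 3400 and 6256 bases exceeded the member median of 1730, and a greater length lowers TPM at a given count. Rps24 had a mean of 557 counts per pool, near the median of 574 over the tested members. Dividing counts by the number of windows found in no other gene, in place of exon length, changed single genes. By exon length Rpl35 had 7.66 TPM, far under Rps27l at 170.3 TPM. Per 1000 such windows it had 63.5 CPM, near the value of Rps27l (78.6). The 2 scales have different units, so only the standing of a gene beside others can be compared. The Rpl35 value rests on only 44 such windows of 897. Over the 77 members that are not l-type paralogs, the SD of the log2 level over genes was 2.34 by exon length and 2.09 by such windows. The windows came from all annotated protein-coding transcripts, used or not, and were searched in transcripts only, not in the genome. The part of uncounted reads in this spread was not tested.

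Several members are paralogs with tissue-restricted or specialised expression. Rps27l, known as a target of p53, received far more counts than its parent Rps27. It had 2754, 1203 and 1658 counts in the control pools and 1720 and 1544 in the exposed pools, at a control mean of 170.3 ± 72.5 TPM. Rps27 had 132, 73 and 39 counts and 44 and 19, at 5.77 ± 3.33 TPM, so the ranges did not overlap. The coding sequences are both 255 bases long and differ at 61 positions (76.1% identical), and no identical stretch is longer than 11 bases, which is too short for a 50-base coding read of one to match the other. The first 60 coding bases, with the differing bases in capitals, come from the genes at chr3:90212522-90213651 for Rps27 and chr9:66946086-66949516 for Rps27l.
Rps27: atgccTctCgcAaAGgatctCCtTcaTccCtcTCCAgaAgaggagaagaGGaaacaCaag
Rps27l: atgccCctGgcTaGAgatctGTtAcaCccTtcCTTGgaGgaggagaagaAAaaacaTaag
Rps27 has other near copies, with 53.8% of its windows found in no other gene against 83.8% for Rps27l. Per 1000 such windows the control means were 5.18 CPM for Rps27 and 78.6 CPM for Rps27l. A single other gene shared 296 of the 641 windows of Rps27, and reads from such windows were not counted. How far the 2 messages differ in abundance therefore cannot be told from these counts.

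Of the other paralogs, Rpl39l, Rpl3l and Rpl10l were low. Rpl39l, known from testis, had 1 count in a single control pool, whereas its parent Rpl39 had 491, 253 and 345 counts in the control pools and 542 and 382 in the exposed pools. Rpl3l, known from striated muscle, had 0 to 5 counts per pool, and its parent Rpl3 had 102, 106 and 99 in the control pools and 196 and 55 in the exposed pools. Rpl10l, a testis gene, had 35 counts in control pool 3 and at most 2 in any other pool, and its parent Rpl10 had 41 to 110. Rps4l, listed as a transcribed pseudogene, had 247, 267 and 443 counts in the control pools and 140 and 395 in the exposed pools. Its X-linked relative Rps4x had 275, 241 and 257 and then 263 and 191, so the ranges of these last 2 genes overlapped in counts. By exon length Rps4l had a control mean of 25.2 ± 8.78 TPM and Rps4x 11.7 ± 0.818 TPM. Windows found in no other gene made up 85.1% of those of Rps4l and 27.8% of those of Rps4x. On the scale of such windows, used for Rps27 above, the order was reversed. The control means there were 9.05 CPM for Rps4l and 21.7 CPM for Rps4x. Which of these messages was the more abundant therefore cannot be told from the counts.

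As a share of all gene counts, the 84 members made up 0.198%, 0.107% and 0.151% in the control pools and 0.188% and 0.156% in the exposed pools. Both exposed pools lay inside the range of the control pools. The exposed mean was 0.0195 percentage points above the control mean of 0.152 ± 0.0454% (SD, n = 3). Without control pool 2 the difference was -0.00305 points. The 302 pseudogenes of the family with symbols ending in -ps added 0.00238% to 0.00439% per pool. Copies under other symbols, such as those with Gm names, are not in this share. The mitochondrial ribosome, which translates the few messages of mitochondrial DNA and is encoded by separate nuclear genes, held 0.387%, 0.263% and 0.309% in the control pools and 0.346% and 0.298% in the exposed pools over 78 genes. Control pool 2 was thus the lowest for both kinds of ribosome.

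**Figure D3:**
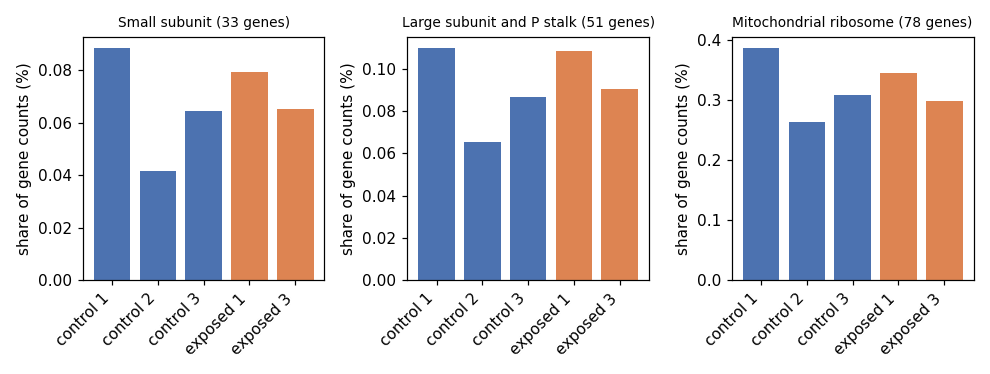
Share of gene counts (y axis, %) held by small-subunit genes, by large-subunit and P stalk genes, and by mitochondrial ribosomal protein genes in each pool (bars). In each panel control pool 1 is the highest and control pool 2 the lowest, and both exposed pools lie between them.

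Gene by gene, the members moved together from pool to pool. Control pool 2 had the lowest CPM in 42 of the 50 tested members, whereas it was the lowest pool for 18.0% of all tested genes. Exposed pool 1 was the highest in 26 members and control pool 1 in 19. The median of log2 CPM minus the gene's mean over pools was 0.30, -0.61 and -0.06 in the control pools and 0.30 and 0.07 in the exposed pools, while the same median over all tested genes lay between 0.01 and 0.03 in every pool. For 76 tested mitochondrial ribosomal protein genes the values in this order were 0.26, -0.25, -0.10, 0.18 and -0.07. Other library properties followed a similar order. Counts on mitochondrially encoded genes were 1.19%, 0.709% and 0.761% of gene counts in the control pools and 1.07% and 0.927% in the exposed pools. The ERCC spike-ins, an equal amount of synthetic RNA added to each lysate, took 0.631%, 0.249%, 0.332%, 0.542% and 0.306% of counts in the same order of pools. Their part in the result was not tested, nor was that of the immune and sustentacular markers given above, which were also high in control pool 1 and exposed pool 1. In pooled cells, fewer cells of a type and less RNA per cell cannot be told apart.

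**Figure D4:**
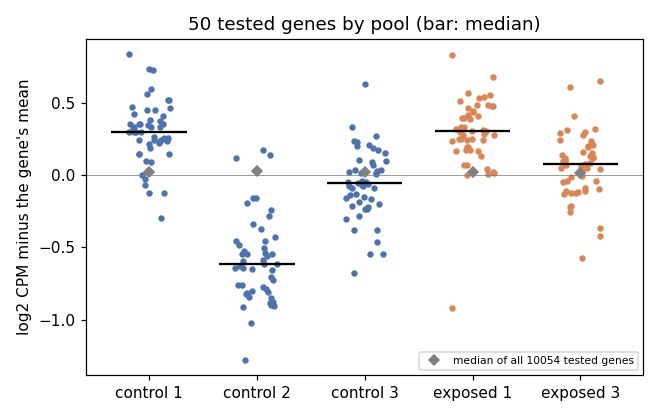
Log2 CPM of each tested member minus its mean over the 5 pools (y axis), by pool (x axis), with a bar at the median of the 50 members and a diamond at the median of all 10054 tested genes. The control pools differ among themselves (-0.61 to 0.30) by more than the exposed pools differ from control pool 1.

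Differences between exposed and control pools were tested with edgeR's quasi-likelihood test over the 10054 genes with 140 or more counts throughout all control or all exposed libraries, and 50 of the 84 members met this. A gene was called at a Benjamini-Hochberg adjusted p under 0.1 with an absolute log2 fold change above 0.5. No member was called, 0 higher and 0 lower, against 5.27% of all tested genes called in either direction (3.42% higher and 1.85% lower). No member had an unadjusted p under 0.05, which 1924 tested genes (19.1%) did, and DESeq2 also called 0 members and gave 0 with an unadjusted p under 0.05. Members whose exposed pools both lay outside the control range numbered 7 of 50 (14.0%), against 39.9% of all tested genes. All 7 were higher in the exposed pools, among them Rpl23, Rpl38, Rps26, Rpl37, Fau and Rps15a.

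The absence of calls does not show that levels were equal. The median standard error was 0.43 log2 units over members and 0.33 over all tested genes, the members having a median of 574 counts against 1542. The 95% interval of the log2 fold change stayed within 1 unit on both sides of 0 in 8 members only, and its upper bound passed 1 in 36. The narrowest interval was that of Rpl4. Its counts were 9676, 8911 and 8113 in the control pools and 9714 and 8649 in the exposed pools, which overlapped, with a log2 fold change of 0.17 ± 0.17 (SE) and an interval from -0.23 to 0.56. Rpl8, whose counts also overlapped, had 0.15 ± 0.26 and an interval from -0.46 to 0.76.

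**Figure D5:**
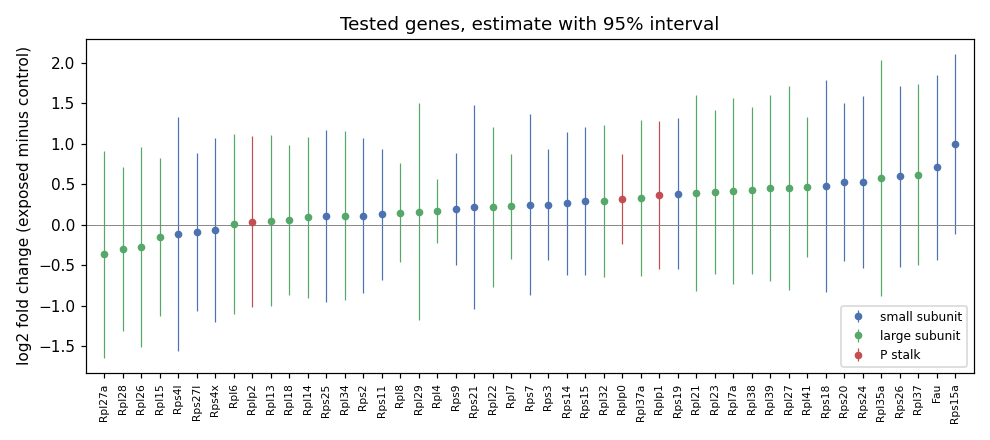
Log2 fold change, exposed minus control (y axis), of 47 of the 50 tested members ordered by value (x axis), with 95% intervals as lines and the subunit as colour. All intervals include 0, from Rpl27a at -0.37 to Rps15a at 1.00.

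Estimates were above 0 in 42 of 50 members, with a median of 0.25 and a range from -0.37 to 1.00, whereas 48.0% of all tested genes were above 0 with a median of -0.03. This lean rested on control pool 2. Without it the median of the members was 0.03, with 29 of 52 tested members above 0. Without control pool 1 it was 0.49, with 47 of 50 above 0, and without exposed pool 1 it was 0.13, with 33 of 50 above 0.

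By subunit, the 21 tested small-subunit members had a median of 0.25, with 17 above 0, and the 26 large-subunit members a median of 0.22, with 22 above 0. The highest estimate was that of Rps15a, a small-subunit protein. It had 171, 166 and 172 counts in the control pools and 304 and 317 in the exposed pools, which did not overlap. Its log2 fold change was 1.00 ± 0.47 with an adjusted p of 0.305 by edgeR, and over its 18 alternatives the adjusted p ran from 0.240 to 0.9996. Fau, the precursor that releases the small-subunit protein eS30 from a ubiquitin-like partner, had 209, 178 and 216 counts and then 359 and 245, with a log2 fold change of 0.71 ± 0.48 (adjusted p = 0.477 by edgeR). The next estimates were 0.62 for Rpl37, 0.60 for Rps26 and 0.57 for Rpl35a, none of which passed the test.

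The lowest estimates belonged to Rpl27a (-0.37 ± 0.54), Rpl28 (-0.30 ± 0.43), Rpl26 (-0.28 ± 0.52), Rpl15 (-0.15 ± 0.41) and Rps4l (-0.12 ± 0.61). Rpl28, of the large subunit, had 417, 533 and 522 counts in the control pools and 460 and 269 in the exposed pools, so that only exposed pool 3 lay under the control range. Rpl26, known for binding p53 messenger RNA, had 820, 531 and 305 and then 467 and 378, wholly within that range.

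The P stalk genes were abundant and overlapped between groups. Rplp0, its base, had 6127, 4359 and 4733 counts in the control pools and 6309 and 5347 in the exposed pools (log2 fold change 0.32 ± 0.23). Rplp1 had 2280, 1102 and 1973 and then 2481 and 1799 (0.37 ± 0.39). Rplp2, the partner of Rplp1, had 1378, 596 and 1176 and then 1148 and 856 (0.04 ± 0.45). The paralog Rps27l, described above, had a log2 fold change of -0.10 ± 0.41.

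Of the 34 members that did not reach the count minimum, 33 had a mean of at least 1 count and could be fitted when only that was required. None had an unadjusted p under 0.05 there, by edgeR's quasi-likelihood test, 21 estimates lying above 0 and 12 below. Rpl5 and Rpl11, which form with 5S ribosomal RNA the particle that restrains Mdm2, were both in this set. Rpl5 had 60, 67 and 32 counts in the control pools and 115 and 118 in the exposed pools, and Rpl11 had 30, 13 and 10 and then 63 and 52. In both, the groups did not overlap, with fitted log2 fold changes of 1.29 and 1.82 and adjusted p of 0.574 and 0.587 by edgeR. In CPM, the exposed pools also lay above all control pools in the untested members Rpl10, Rpl36a, Rps28 and Rps29. The share of such genes among all genes with so few counts was not computed. Only 14.6% of the windows of Rpl5 and 46.0% of those of Rpl11 are found in no other gene. The opposite direction was seen in Rpl12, a stalk-base protein chosen for mention after its values were seen, with 187, 69 and 122 counts and then 32 and 29 (fitted log2 fold change -1.92, adjusted p = 0.538 by edgeR).

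Rps6, the small-subunit protein phosphorylated by S6 kinase and much used as a marker of neuronal activity, had 81, 53 and 81 counts in the control pools and 60 and 114 in the exposed pools, which overlapped. It has 128 windows of its own among 829 (15.4%). Rps27a, a fusion of ubiquitin with a small-subunit protein, had 112, 41 and 118 counts and then 124 and 69, also overlapping.

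Of the 15 members with a TOP start, 10 were tested and had a median log2 fold change of 0.32 (from -0.30 to 1.00, 8 above 0). The 27 tested members with other listed starts had a median of 0.25 (from -0.37 to 0.62, 23 above 0). These are descriptions, and the ranges overlap except that Rps15a and Fau, both with a TOP start, lie above all members with other starts.

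Genes that work with the ribosome were examined as lists. Among 16 tested messages of the TOP class outside the family, 2 were called higher and 0 lower, with a median of 0.12, beside 3.42% higher and 1.85% lower over all tested genes. Eif4b, a helicase cofactor in translation initiation, had 4099, 4643 and 5196 counts in the control pools and 7632 and 6826 in the exposed pools. It rose by 0.77 ± 0.17 log2 units (adjusted p = 0.0718 by edgeR). Eef2, the translocase of elongation, had 16274, 17169 and 15396 counts and then 20759 and 22171, and rose by 0.53 ± 0.13 (adjusted p = 0.0957 by edgeR). In both genes the exposed pools lay above all control pools. The adjusted p ran from 0.00107 to 0.9996 over 18 alternatives for Eif4b and from 0.00406 to 0.9996 for Eef2. The Eif4b call was lost without control pool 1 (0.107), control pool 2 (0.188), exposed pool 1 (0.387) or exposed pool 3 (0.196), and the Eef2 call without control pool 2 (0.206), control pool 3 (0.170), exposed pool 1 (0.347) or exposed pool 3 (0.316).

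Eef1a1, which delivers aminoacyl-tRNA, had 6502, 6281 and 5646 counts in the control pools and 9134 and 6715 in the exposed pools (0.49 ± 0.19, adjusted p = 0.226 by edgeR). Its neuronal paralog Eef1a2 had 909, 1668 and 964 and then 438 and 573 (-1.07 ± 0.38, adjusted p = 0.198 by edgeR). Neither passed, although in both the groups did not overlap. They are named here because they belong to the list of 6 elongation factors, of which Eef2 alone was called. Rack1 had 5333, 3511 and 3826 counts and then 4281 and 3939 (0.07 ± 0.26) and was lowest in control pool 2, like most members. None of the 4 tested genes that the naming rule left out was called.

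In the list of TOR and TOP regulators, 1 of 18 tested genes was called, a share near the 5.27% over all tested genes. Sesn2, a stress-induced leucine sensor that inhibits TOR complex 1, had 1094, 1249 and 975 counts in the control pools and 3253 and 2195 in the exposed pools. It rose by 1.43 ± 0.27 log2 units (adjusted p = 0.0445 by edgeR, from 4.3e-05 to 0.9996 over 18 alternatives). The call was lost without control pool 2 (0.130), exposed pool 1 (0.333) or exposed pool 3 (0.105). Larp1 had 5222, 3061 and 3034 counts and then 2960 and 1990 (-0.50 ± 0.35), and Mtor 586, 2198 and 2260 and then 3610 and 2601 (1.04 ± 0.53), neither past the test. The list's median was 0.34, with 15 of 18 genes above 0.

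The lists of ribosome production held few genes, so that at 5.27% called and 19.1% at an unadjusted p under 0.05 over all tested genes little can be read from their counts. In the nucleolar assembly list, 0 of 22 tested genes were called by edgeR, with 2 at an unadjusted p under 0.05 and a median of 0.25. In the RNA polymerase I list, 0 of 12 were called, with 1 at an unadjusted p under 0.05 (Polr1b, the second largest subunit, at -1.49 ± 0.51) and a median of 0.26. In the mitochondrial ribosome, 0 of 76 were called, with 2 at an unadjusted p under 0.05, a median of 0.04 and 48 genes above 0.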

How the data were processed

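Per the labels and methods, RNA of sorted cells was amplified (SMARTer Ultra Low), made into Nextera XT libraries and read as single 50-base reads. The paper and the sample characteristics give 200 cells per pool, whereas the protocol text in the labels gives 400. The authors aligned with STAR (2.7.0a) to GRCm38 and deposited counts per gene from featureCounts (1.6.3), unstranded. Multi-mapped reads, and reads that overlap several genes, were not counted. Symbols came from GENCODE M21 (55144 of 55411 identifiers). Spike-ins and the reporter stayed out of library sizes.

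Counts were fitted with edgeR 4.0.16 (R 4.3.3), TMM scaling, robust quasi-likelihood, condition as the only term, over genes with 140 or more counts throughout all control or all exposed libraries, a minimum set at the upper trough in the distribution of log2 counts. Alternatives used DESeq2 1.42.0 and apeglm 1.24.0 among others. TPM used the exon lengths in the files. The p-values set the difference between groups against the spread between pools of 4 mice, not between single mice. The fit and the window search were checked on simulated data and by text search.

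Named genes were called members and called genes of related lists, the 5 highest and lowest fold changes and levels among tested members, P stalk genes, Rpl5, Rpl11, Rps27a, Fau, Rps6, and paralogs with their parents. Any other gene was picked with its values known. The members and lists were chosen with earlier results of these data known. A few genes are not reported here by name, and the plots that name genes leave them out.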

Additional observations from a re-analysis of the deposited data

How the results depend on the processing

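No member was called in either direction under any of the 18 alternatives, 17 planned and 1 (the lower density minimum, 58 counts, 65 members tested) added after the data were seen. The number with an unadjusted p under 0.05 was 2 with length offsets and 2 without control pool 1, and 0 otherwise. The median log2 fold change of tested members stayed above 0, from 0.03 to 0.49 when each pool was left out in turn. The share difference ran from -0.00305 points without control pool 2 to 0.0424 points without control pool 1, and the cause was not tested. ERCC scaling moved the median of all tested genes to -0.23, against 0.12 for members. All tested genes called numbered 530 by the reported fit, 1386 by DESeq2, 202 by glmTreat, 143 with ERCC scaling, 240 with filterByExpr, 263 with a mean of 1 count and 280 at an adjusted p under 0.05. Single pools moved this background too, to 112 without exposed pool 1, 192 without exposed pool 3, 224 without control pool 2, 492 without control pool 1 and 777 without control pool 3. With the pool number as a replicate block, 11 genes were called in all, 0 of them members, with a member median of 0.03. Control pool 2, the only pool of its number here, adds nothing to the group difference in that fit. Its median is thus close to that without control pool 2, also 0.03. The block also leaves fewer degrees of freedom to estimate the spread between pools. The numbers are not stated to mark shared days, and the reported fit did not treat them as pairs. Same-numbered pools correlated at 0.06 and -0.08 in their deviations from the group means over all tested genes. With only 2 exposed pools, the deviations of one mirror those of the other. The 2 correlations are therefore not separate checks and cannot decide whether the numbers pair the pools. Among the tested members, control pool 1 and exposed pool 1 both had a median deviation of 0.30. Of the named genes, Eif4b, Eef2 and Sesn2 lost their calls in 27 gene-by-alternative fits, with no change of sign. Estimates of the 22 tested and uncalled named members changed sign in 16 of 396 fits, over 8 genes, with none called, and moved by more than their standard error in 5: Rpl28 (-0.73 without exposed pool 1), Rpl4 (-0.01 with ERCC scaling), Rps15a (0.50 with DESeq2 and apeglm), Rps27l (0.36 without control pool 1) and Rps4l (-1.10 without exposed pool 3). Estimates by apeglm are shrunken towards 0, and ERCC scaling lowered the median of all tested genes, as given above. The cause of the single moves was not tested.

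The limits are these. The counts left 34 members untested, and only 2 exposed pools were analysed. Reads that match other genes, pseudogenes among them, were lost, which lowers levels unequally between members.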
